A study of Homo sapiens with 36 samples.

Results

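The inputs of the FLAG-SCAF4 line were set against those of its parental line, replicate by replicate. The aim was to describe the RNA that formed clusters in the 2 extracts before any pull-down. Both are HEK293 Flp-In T-REx cells, a human embryonic kidney line with 1 integration site for a doxycycline-inducible construct, and both kept their own SCAF4 and SCAF8 genes. The FLAG-SCAF4 line carries a tagged SCAF4 construct whose coding region was, according to the study's methods, amplified from an ORF clone, and it was picked as a single clone. All cells received 4-thiouridine (4SU), a photoreactive uridine, at 100 uM overnight and at 500 uM for 2 h, and were irradiated at 365 nm with 2000 J per m2. The labels give doxycycline at 100 ng/mL for the tagged lines, whereas the methods name another dose and include the parental cells, so clone, construct and doxycycline cannot be told apart here. Each input is a 1% sample of RNase I-treated soluble or chromatin extract, taken before the FLAG immunoprecipitation (IP). The members are the 6 cluster lists of these inputs, 3 per line, out of 18 lists in the series. Each list joins the soluble and chromatin libraries of 1 replicate, so that the 6 lists stand for 12 of 36 samples and hold 43762 of 278185 clusters. FLAG-SCAF8 input, from a line that carries tagged SCAF8, was used for comparison (3 lists).

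SCAF4 and SCAF8 are related nuclear proteins with a domain that binds the phosphorylated C-terminal domain of RNA polymerase II (RNAPII), and they are known for preventing the use of early polyadenylation sites. PAR-CLIP reads crosslinked RNA through T-to-C changes that 4SU leaves in the sequence, and a cluster is a stretch of reads with enough of these changes. An input was not selected for a bound protein, so its clusters can come from 4SU-labelled RNA with or without a crosslink. Exonic clusters come mostly from mature or maturing messenger RNA and intronic clusters from unspliced RNA. A cluster list says where such RNA passed the threshold and not how much of it there was. Genes with few and many reads can hold the same number of clusters, and fewer crosslinks per RNA cannot be told apart from less RNA.

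Sequences are printed from regions that occurred in every list of 1 line and in no list of the other. Such regions were 0.501% (FLAG-SCAF4 input) and 0.482% (parental input) of all merged regions. They were chosen for their difference and do not stand for what the lists hold as a whole. Below are 30 nt on the transcribed strand from the middle of the stretch covered in all 3 lists, with T, the base that stands for 4SU, in capitals. The first 7 come from FLAG-SCAF4 input and lie in the 3' UTR of AEN, in the pseudogene EIF1AXP1, and in coding exons of TASOR2, TUBB4B and SCAF4. The last 3 come from parental input and lie in introns of WDR4, PRRC2A and IGF2BP3.
AEN (GRCh38 chr15:88631065-88631094, + strand): gcaTaTTTaTTTTgacccaaaTcagggaTT
EIF1AXP1 (chr1:16685940-16685969, - strand): agaggaTggTcaggagTaTgcTcaggTaaT
TASOR2 (chr10:5748902-5748931, + strand): TggagaTTcTgaTcTagaccTgcTTggTga
TUBB4B (chr9:137242738-137242767, + strand): aaagTgTcagacacagTggTggagcccTac
SCAF4 (chr21:31672098-31672127, - strand): aaaggTcccTTcccaccgcaTggccccTTT
SCAF4 (chr21:31693374-31693403, - strand): TagacgccgacaTTcTccccgaTcTcgaTc
SCAF4 (chr21:31685119-31685148, - strand): gagTcTggTgacagcgTgaaaaTgTaTggc
WDR4 (chr21:42844204-42844233, - strand): TTcggTcTcTTccccTgccTccTgcagTcc
PRRC2A (chr6:31628416-31628445, + strand): aaTcTTaggTTgTagTcTaaTaccaTTTcT
IGF2BP3 (chr7:23414888-23414917, - strand): agaTgTggTgaTgccgacTgaTggacaggg

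The lists of a replicate were of similar length in both lines. FLAG-SCAF4 input held 11715, 5114 and 4793 clusters in replicates 1, 2 and 3, and parental input held 12493, 4567 and 5080. Replicate 1 gave the longest list in both lines, and its reads were longer than those of the other replicates. The within-replicate difference was -0.00 ± 0.15 on the log2 scale (SD, n = 3 pairs; two-sided exact sign-flip permutation test, p = 1). The clusters were slightly longer in the tagged line, with medians of 151, 137 and 136 nt against 148, 126 and 128 nt. A list overlapped the list of the same replicate of the other line with a Jaccard index of 0.295 ± 0.005 (SD, 3 pairs), that is, the shared covered nucleotides divided by all covered nucleotides. Replicates of FLAG-SCAF4 input overlapped each other with an index of 0.269 ± 0.064, and those of parental input with 0.233 ± 0.075. Lists of different replicates overlapped across lines with an index of 0.232 ± 0.052 (SD, 6 pairs), which lay within the spread of both. These means mix the long lists of replicate 1 with shorter ones. Between replicates 2 and 3 the index was 0.342 within FLAG-SCAF4 input and 0.320 within parental input. Across lines these replicates gave 0.301 and 0.293 for the same number, and 0.294 and 0.304 for different numbers. The shorter lists thus overlapped more within a line than across lines. Of 9 HEK293 markers 6 had a cluster, led by VIM with 14 clusters over the 6 lists, whereas PAX2, INA and NEFM had none. None of 9 markers of other cell types (PTPRC, CD3E, ALB, HBB, GFAP, PECAM1, COL1A1, MYH7, CD79A) had a cluster. The summed clusters of the HEK293 markers ranged from 2 to 13 in FLAG-SCAF4 input and from 1 to 7 in parental input.

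SCAF4 itself (ENSG00000156304, chr21:31671000-31732118, - strand) is the gene that the construct duplicates, and its clusters are a check of the labels. Its sense strand held 17, 16 and 17 clusters in FLAG-SCAF4 input and 7, 2 and 1 in parental input, and the groups did not overlap. Per 10000 clusters of a list this was 14.5, 31.3 and 35.5 against 5.60, 4.38 and 1.97, a difference of 23.1 ± 12.7 (SD, n = 3 pairs; exact sign-flip permutation p = 0.25, the smallest value that 3 pairs allow; adjusted p = 0.406 over 39 measures). The values per 10000 of the 2 lines also lay apart, as they did for 11 of the 39 measures. FLAG-SCAF8 input held 3, 3 and 4 clusters in SCAF4, in the range of the parental lists.

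The SCAF4 clusters of the tagged line lay mostly in coding exons. Coding exons held 15, 16 and 17 clusters in FLAG-SCAF4 input, and 2, 0 and 1 in parental input. The introns of SCAF4 showed the opposite order, with 2, 0 and 0 clusters against 5, 2 and 0. Neither UTR held a cluster midpoint in any of the 6 lists. Of the 20 exons of the longest isoform, 14 were hit in all 3 FLAG-SCAF4 input lists, exon 17 in 2, and exons 1, 2, 3, 9 and 18 in none. The exons hit in all 3 lists had a median length of 160 nt and those never hit a median of 87 nt. Of the 48 coding-exon clusters of the tagged line, 45 reached at most 10 nt beyond their exon and 22 lay wholly inside it. In all other genes 81.7%, 84.1% and 83.1% of the coding-exon clusters of FLAG-SCAF4 input also reached at most 10 nt beyond their exon, against 73.4%, 82.9% and 83.2% in parental input. In parental input the last exon and exon 15 accounted for the 3 exonic clusters.

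**Figure D1:**
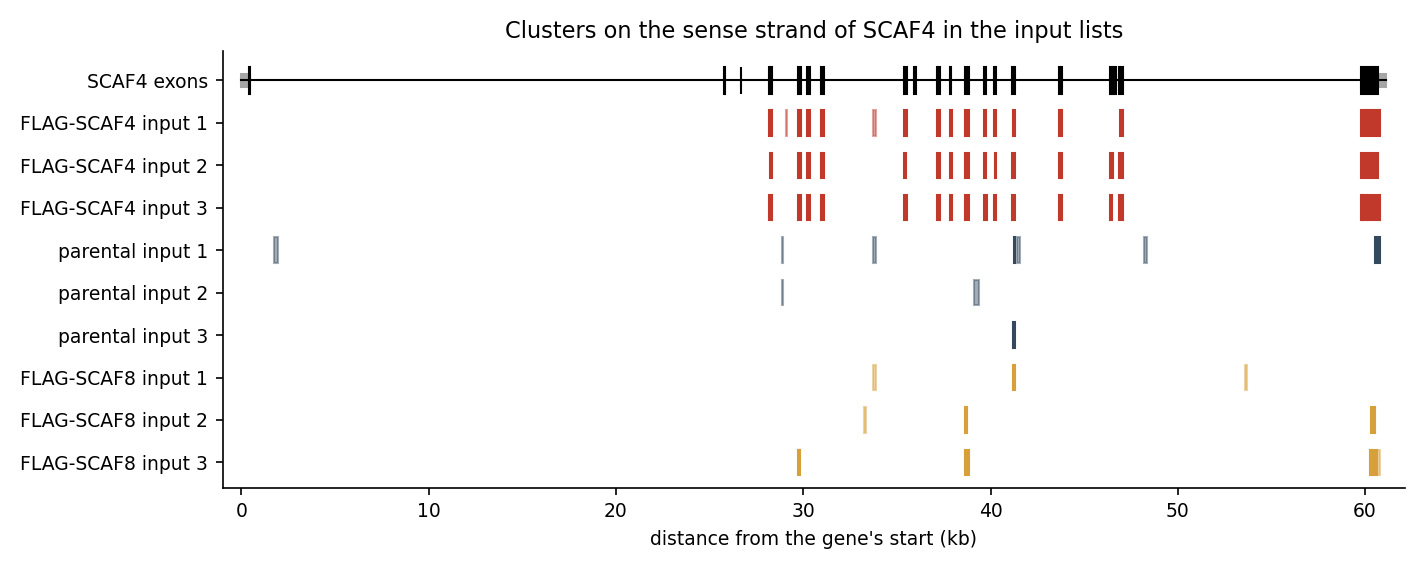
Clusters on the sense strand of SCAF4 in the 9 input lists, by distance from the start of the gene in kb. Black boxes are coding and grey boxes untranslated exon sequence, and pale bars are clusters outside coding exons. The 3 FLAG-SCAF4 input lists hold 17, 16 and 17 clusters and the parental lists 7, 2 and 1. The FLAG-SCAF4 clusters lie in exons from exon 4 on, apart from 2 intronic clusters of replicate 1. Exons 9 and 18 and, in 1 list, exon 17 hold none of them.

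SCAF8 (ENSG00000213079, chr6:154733378-154834244, + strand), the paralogue, had fewer clusters in the tagged line than in the parental line. It held 7, 2 and 1 clusters in FLAG-SCAF4 input, 10, 3 and 5 in parental input and 18, 20 and 18 in FLAG-SCAF8 input. The difference between FLAG-SCAF4 and parental input was -4.15 ± 3.14 clusters per 10000 (SD, n = 3 pairs; exact sign-flip permutation p = 0.25; adjusted p = 0.406) and most of these clusters, 7 of 10 and 15 of 18, were intronic.

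The balance of exons and introns differed between the lists of the 2 lines in every pair. Each list pools soluble and chromatin reads in an unknown proportion, and the effect of that proportion was not tested. Introns of protein-coding genes held 30.1%, 29.2% and 30.1% of clusters in FLAG-SCAF4 input and 43.4%, 39.9% and 42.5% in parental input, a difference of -12.1 ± 1.3 percentage points (SD, n = 3 pairs; exact sign-flip permutation p = 0.25; adjusted p = 0.406). Coding exons held 31.1%, 30.4% and 31.1% against 23.1%, 21.5% and 20.5% (difference 9.16 ± 1.35). The ranges of the 2 lines did not overlap for either class. Over all 39 measures the ranges lay apart for 11, and 24 differed in 1 direction in all 3 pairs. As ratios, FLAG-SCAF4 input had 1.87, 1.79 and 1.68 exonic clusters per intronic cluster, and parental input had 1.00, 0.951 and 0.841. This was a difference of 0.94 ± 0.06 on the log2 scale (SD, n = 3 pairs; exact sign-flip permutation p = 0.25; adjusted p = 0.406; unpaired exact permutation test of the same lists, adjusted p = 0.355). FLAG-SCAF8 input, set against the same parental lists, had ratios of 1.26, 2.29 and 2.18 and an intronic share of 37.3%, 25.1% and 26.0%, so that each of its lists too lay on the exonic side of the parental list of its replicate.

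Because the lists need not hold the same genes, the ratio was also taken over the 799 protein-coding genes with a cluster in all 6 lists. It was then 1.50, 1.51 and 1.51 in FLAG-SCAF4 input and 1.00, 1.03 and 0.932 in parental input, a log2 difference of 0.61 ± 0.08 (SD, n = 3 pairs). The exonic excess was therefore smaller within shared genes than over the lists as a whole, and its direction was the same. Gene by gene, 652 protein-coding genes had at least 6 clusters in each line over the 3 lists. The exonic share was higher in FLAG-SCAF4 input for 391 of them (60.0%), lower for 118 (18.1%) and equal for 143. The median exonic share of these genes was 66.7% in FLAG-SCAF4 input and 50% in parental input.

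**Figure D2:**
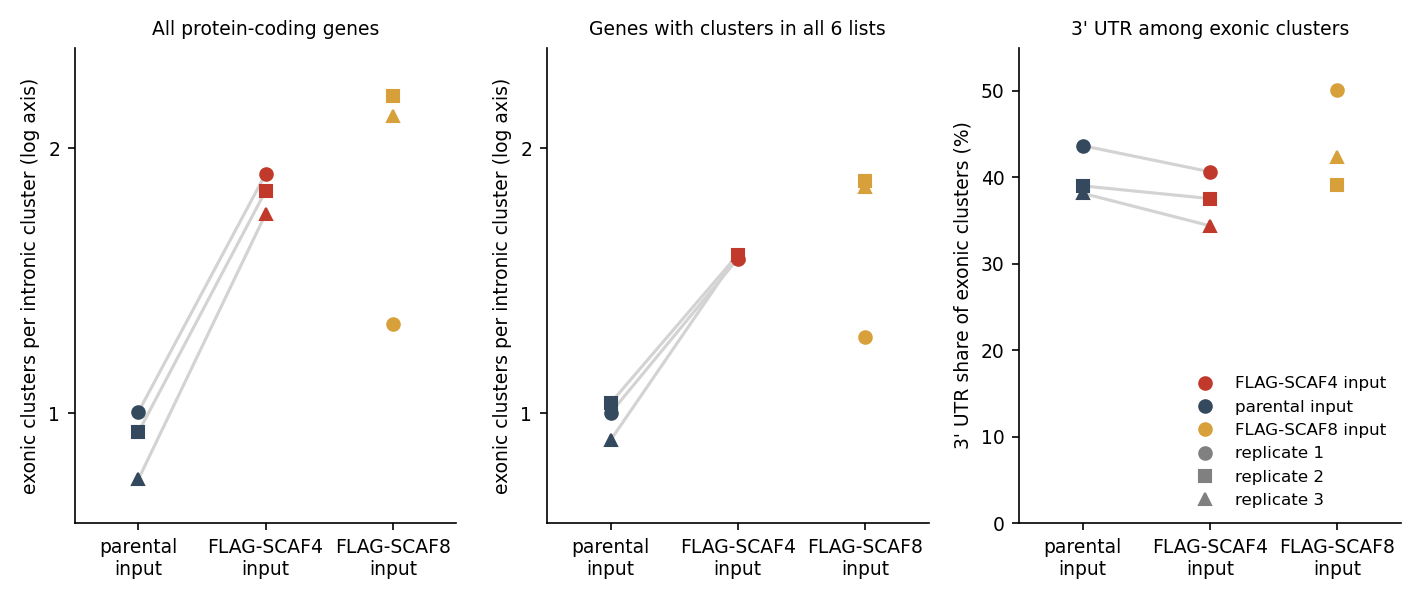
Exonic clusters per intronic cluster in all protein-coding genes and in the 799 genes with clusters in all 6 lists (log axes), and the 3' UTR share of exonic clusters in %. Each point is 1 list and grey lines join the parental and FLAG-SCAF4 lists of a replicate. The FLAG-SCAF4 ratios lie between 1.68 and 1.87 over all genes and the parental ratios between 0.841 and 1.00.

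The other classes were small. Exons of noncoding genes held 5.43%, 6.30% and 7.09% of clusters in FLAG-SCAF4 input and 3.64%, 5.67% and 4.92% in parental input, and introns of noncoding genes 3.02%, 3.81% and 3.98% against 3.75%, 5.19% and 5.31%. Positions outside annotated transcripts and their 2 kb flanks held 3.10%, 5.48% and 5.34% against 3.76%, 7.97% and 7.81%. Clusters antisense to a gene body, which are a part of those outside transcripts, made up 0.734%, 1.58% and 1.44% of all clusters against 1.12%, 2.63% and 2.83%. Each of these shares differed in the same direction in all 3 pairs. Noncoding introns and positions outside transcripts, with their antisense part, were lower in FLAG-SCAF4 input. The classes are shares of the same list, so they do not vary independently. Upstream and downstream flanks, clusters over small noncoding RNA genes, and nuclear copies of mitochondrial DNA had no common direction in the 3 pairs.

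**Figure D3:**
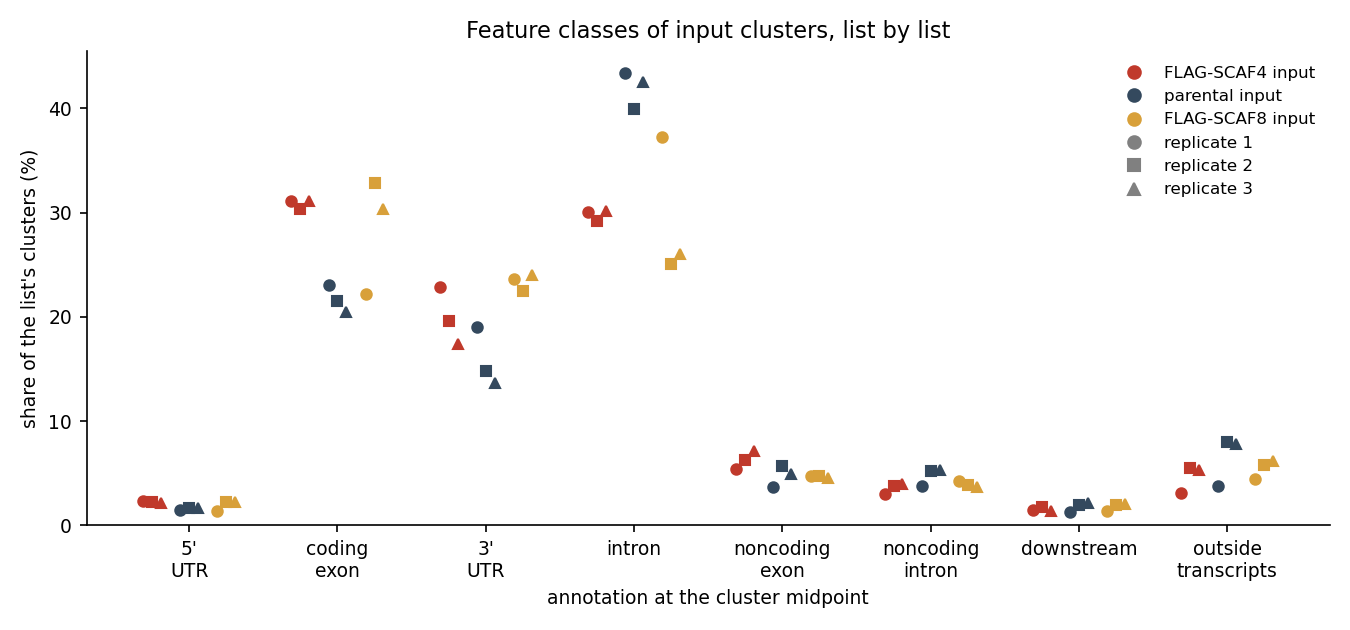
Share of clusters in 8 annotation classes at the cluster midpoint, in % of each list. Colours mark the line and shapes the replicate. Coding exons lie between 30.4% and 31.1% in FLAG-SCAF4 input and between 20.5% and 23.1% in parental input, and introns between 29.2% and 30.1% against 39.9% and 43.4%.

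Clusters that span an exon-intron border are ambiguous in this count. They made up 15.3%, 15.4% and 15.8% of the clusters in protein-coding genes in FLAG-SCAF4 input and 14.1%, 11.6% and 10.9% in parental input. Among the intronic clusters that remained in the tagged line, fewer lay in genes longer than 100 kb, with 31.1%, 18.3% and 20.0% against 33.9%, 24.1% and 23.8% (difference -4.11 ± 1.47 percentage points, SD, n = 3 pairs; exact sign-flip permutation p = 0.25; adjusted p = 0.406). The share in first introns (29.2%, 27.5% and 26.5% against 24.3%, 26.4% and 27.3%), the median position along the gene and the median length of the host intron had no common direction. Over spliced transcripts, the median exonic cluster of FLAG-SCAF4 input lay at 42.4%, 42.2% and 42.7% of the length from the 5' end, and that of parental input at 44.5%, 43.6% and 43.6%, so that the exonic clusters of the tagged line lay slightly further upstream.

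The 3' UTR share depended on its denominator. Of all clusters, 3' UTRs held 22.9%, 19.6% and 17.4% in FLAG-SCAF4 input and 19.0%, 14.8% and 13.6% in parental input, which was higher by 4.15 ± 0.56 percentage points (SD, n = 3 pairs; exact sign-flip permutation p = 0.25; adjusted p = 0.406). Of the exonic clusters alone, they held 40.7%, 37.6% and 34.4% against 43.7%, 39.0% and 38.2%, which was lower by a mean of 2.75 with an SD of 1.17 (difference -2.75; exact sign-flip permutation p = 0.25; adjusted p = 0.406). Both lines overlapped in range, and the order held only within pairs. In the 799 shared genes the difference was -2.47 ± 1.32. The hexamer AATAAA, the canonical polyadenylation signal, occurred within 100 nt centred on the midpoint in 4.01%, 3.09% and 3.69% of clusters of FLAG-SCAF4 input and 4.37%, 4.31% and 4.27% of parental input. Coding exons thus accounted for more of the exonic excess of the tagged line than 3' UTRs did.

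Base composition moved little. Clusters of FLAG-SCAF4 input held 27.7%, 26.6% and 26.2% T and those of parental input 29.0%, 26.5% and 26.2%. The GC content was 46.2%, 47.9% and 48.2% against 44.1%, 47.3% and 47.7%, higher in the tagged line in all 3 pairs by a mean of 1.04 percentage points.

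The clusters of an input were then compared with regions found in at least 2 of 3 SCAF4 IP lists, which were made from the same extracts as FLAG-SCAF4 input. Such regions overlapped 69.2%, 86.5% and 88.5% of the clusters of FLAG-SCAF4 input and 58.4%, 80.0% and 76.8% of those of parental input (difference 9.70 ± 2.83 percentage points, SD, n = 3 pairs; exact sign-flip permutation p = 0.25; adjusted p = 0.406). The overlap was lowest in replicate 1, the longest list, in both lines. Among exonic clusters it was 77.8%, 90.9% and 94.1% against 76.5%, 92.7% and 91.9%, with no common direction. Among intronic clusters it was 53.6%, 78.9% and 81.1% against 40.0%, 69.5% and 64.9% (difference 13.0 ± 3.4). SCAF8 IP regions, from another line, overlapped the clusters of FLAG-SCAF4 input more often too, by 6.71 ± 1.77 percentage points, and control IP regions by 1.90 ± 2.25, where 1 of 3 pairs went the other way. With SCAF4 IP regions that overlapped a control IP region left out, the difference was 3.68 over all clusters, 5.95 among exonic and 4.28 among intronic clusters, and the exonic difference was then no smaller than the intronic one.

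Cluster numbers per gene were compared for the 1919 genes with at least 6 clusters over the 6 lists, on log2 of clusters per 10000 with a pseudocount of 0.5, by limma with the replicate as a block. No gene passed an adjusted p under 0.05 in either direction (0 of 1919, 0%), with 130 genes higher (6.77%) and 113 lower (5.89%) in FLAG-SCAF4 input at an unadjusted p under 0.05. The same sign in all 3 pairs was found for 370 genes on the higher side (19.3%) and 255 on the lower side (13.3%). These are signs of clusters per 10000, so a gene with equal cluster numbers in a pair takes its sign from the list lengths. Ties fell on the higher side in replicates 1 and 3, where the FLAG-SCAF4 list was shorter, and on the lower side in replicate 2. Part of the excess on the higher side can thus come from ties. Without the replicate block limma called 3 genes higher, EIF1AX (adjusted p = 0.00464), SCAF4 (0.00735) and CEBPE (0.0130), and 1 lower, TRMT11 (0.0424). The adjusted p of SCAF4 in limma ranged from 1.25e-15 to 0.586 over the settings tried, the lowest with replicate 1 left out. Both ends came from fits with a replicate left out, which have 1 residual degree of freedom, so neither value carries weight. Since SCAF4, whose construct the line carries, had an adjusted p of 0.237 with a log2 difference of 2.50 ± 0.47 (SE), the fit left differences of this size uncalled. Of the clusters in the 130 genes on the higher side, 71.3% were exonic in FLAG-SCAF4 input and 63.3% in parental input, and of those in the 113 genes on the lower side 29.9% and 21.3%. Over all tested genes the shares were 60.4% and 47.3%.

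**Figure D4:**
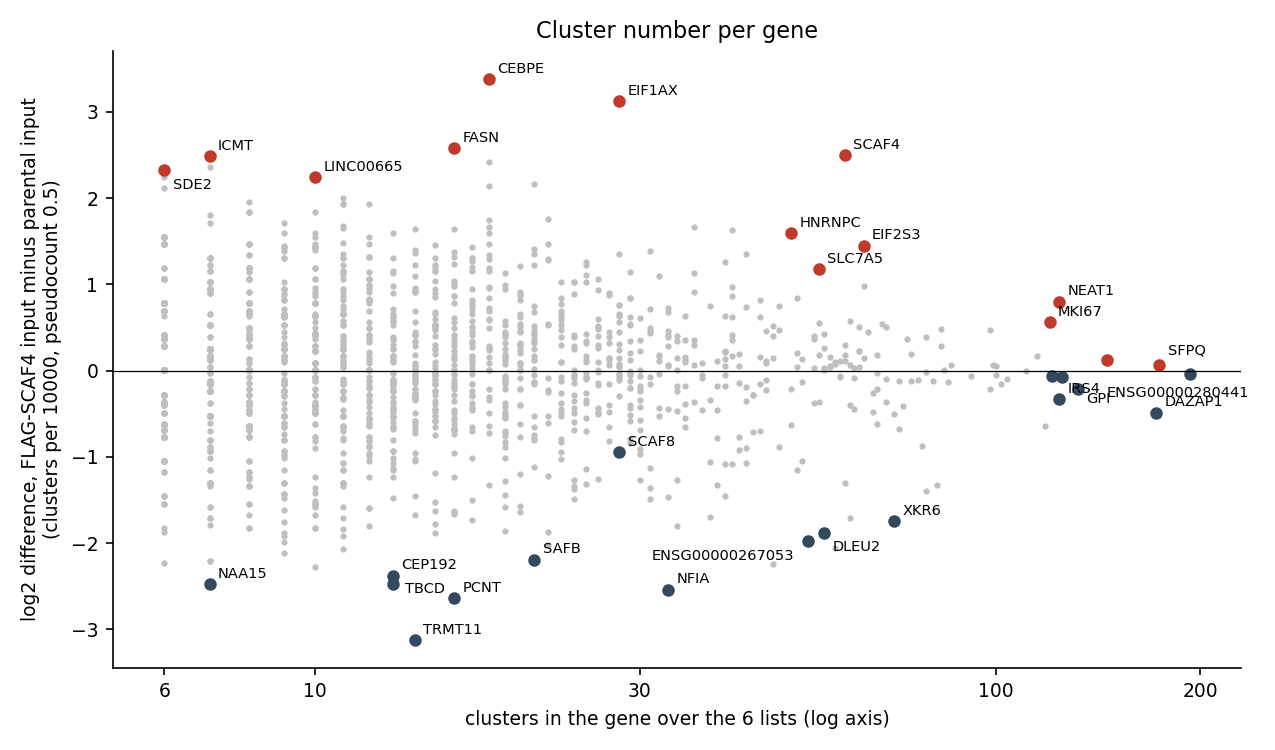
Log2 difference of clusters per 10000 (FLAG-SCAF4 input minus parental input, pseudocount 0.5) against the clusters of a gene over the 6 lists (log axis), for tested genes. Coloured points are SCAF4, SCAF8, the genes with the most clusters and the 10 genes with the smallest p on each side. Among the named genes CEBPE (3.38) and EIF1AX (3.12) lie highest and TRMT11 (-3.12) lowest, and SCAF4 lies at 2.50.

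The 10 genes with the smallest p on the higher side all had the same adjusted p of 0.237 in the limma fit, with log2 differences between 1.18 and 3.38. Beside SCAF4 they were EIF1AX, HNRNPC, EIF2S3, CEBPE, ICMT, SDE2, SLC7A5, FASN and LINC00665. EIF1AX encodes a translation initiation factor that helps to scan for the start codon. It held 13, 6 and 6 clusters in FLAG-SCAF4 input and 3, 0 and 0 in parental input (log2 difference 3.12 ± 0.45, SE), with 17 against 3 exonic and 7 against 0 intronic clusters. EIF2S3 encodes the gamma subunit of eIF2, which brings the initiator tRNA to the ribosome, and held 25, 11 and 10 against 12, 3 and 3 (1.45 ± 0.23). Both were chosen for their p and sign, and the whole list of translation factors is described with the other lists.

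HNRNPC, an hnRNP protein that binds uridine tracts in nascent RNA, held 23, 9 and 6 clusters in FLAG-SCAF4 input against 8, 2 and 2 (1.60 ± 0.24, SE). SLC7A5, which encodes a large neutral amino acid transporter, held 8, 16 and 15 against 4, 6 and 6 (1.18 ± 0.21). Most SLC7A5 clusters were intronic, 26 against 9 over the 3 lists, so that its difference did not follow the general exonic direction. FLAG-SCAF8 input had 3, 1 and 1 clusters in SLC7A5. FASN, the fatty acid synthase gene, held 6, 4 and 4 clusters against 2, 0 and 0, all in exons. ICMT, which encodes the enzyme that methylates prenylated proteins, held 3, 2 and 2 against 0, and SDE2, a nuclear protein gene, held 2 in each list against 0. FLAG-SCAF8 input, whose lists were longer in replicates 2 and 3, held 1, 5 and 4 clusters in FASN and 2, 3 and 3 in ICMT. It held 0, 1 and 2 in SDE2 and 8, 5 and 9 in HNRNPC.

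CEBPE, the gene of a transcription factor of granulocyte development, had the largest difference of the named genes. It held 12, 4 and 2 clusters in FLAG-SCAF4 input, and 0 in all lists of parental input and of FLAG-SCAF8 input (limma log2 difference 3.38 ± 0.55, SE; adjusted p = 0.237). Only 2 of these 18 clusters lay in exons and 3 in introns, and the others lay within 2 kb upstream or downstream. On the sense strand from 10 kb before to 10 kb after the gene (chr14:23117036-23120256, - strand), FLAG-SCAF4 input held 18, 4 and 3 clusters, and parental input held 1, 0 and 0. The SCAF4 IP lists of the same line held 23, 22 and 12 clusters there, the SCAF8 IP lists 0, and the control IP lists 1, 0 and 0. The run of clusters across this locus therefore occurred in 6 of 6 lists of the FLAG-SCAF4 line, input and IP, and in the other lists of the series there were 1 cluster in 1 parental input list and 1 in 1 control IP list.

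The 10 genes with the smallest p on the lower side also shared an adjusted p of 0.237 in the limma fit, with log2 differences between -3.12 and -1.75. They were PCNT, TBCD, XKR6, CEP192, TRMT11, SAFB, NAA15, NFIA, ENSG00000267053 and DLEU2. Over the 3 lists they held 44 intronic clusters in FLAG-SCAF4 input and 227 in parental input, and 6 exonic clusters against 19. TRMT11, a subunit of a tRNA methyltransferase, held 0, 0 and 0 clusters against 9, 2 and 3, of which 13 were intronic (-3.12 ± 0.48, SE), and FLAG-SCAF8 input held 14, 7 and 6. NFIA, a transcription factor gene with long introns, held 6, 0 and 0 clusters against 20, 3 and 4, all intronic. XKR6 held 13, 1 and 3 against 36, 5 and 13 (-1.75 ± 0.25). DLEU2, a long noncoding RNA that hosts microRNAs, held 4, 2 and 5 clusters against 23, 11 and 11, all intronic (-1.88 ± 0.35). The same sign in all 3 pairs was part of the rule that chose the 10 genes on each side and is no result about them.

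PCNT, which encodes the centrosomal protein pericentrin, had most of its exonic clusters in 1 list. It held 1, 0 and 0 clusters in FLAG-SCAF4 input against 10, 3 and 2 in parental input, and 10 of the parental clusters were exonic, 9 of them in replicate 1, whereas those of replicates 2 and 3 were mostly intronic (log2 difference -2.64 ± 0.37, SE). FLAG-SCAF8 input held 0, 1 and 0 clusters in it. SAFB, a nuclear matrix-associated RNA-binding protein gene, held 2, 0 and 1 against 8, 2 and 8, and the exonic clusters were 3 against 4 whereas the intronic clusters were 0 against 14. CEP192, another centrosomal gene, held 1, 0 and 0 against 8, 2 and 2, and 10 of its 12 parental clusters were intronic. NAA15, a subunit of an N-terminal acetyltransferase, held 0 against 3, 2 and 2, and TBCD, a tubulin-folding cofactor gene, held 1, 0 and 0 against 7, 2 and 3.

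LINC00665 and ENSG00000267053 overlap on opposite strands of chromosome 19 and differed in opposite directions. LINC00665, on the minus strand, held 4, 2 and 3 clusters in FLAG-SCAF4 input and 1, 0 and 0 in parental input (log2 difference 2.24 ± 0.42, SE). ENSG00000267053, an unnamed gene on the plus strand, held 1, 6 and 4 clusters against 10, 12 and 20 (-1.97 ± 0.37), nearly all intronic. FLAG-SCAF8 input held 0, 0 and 0 on LINC00665 and 9, 75 and 45 on ENSG00000267053. The clusters carry a strand from adapter-ligated small RNA libraries, so the counts are strand-specific.

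Leaving aside 1 sex-linked noncoding RNA gene, the genes with the most clusters were ENSG00000280441, SFPQ, DAZAP1, HNRNPU, GPI, DDX17, NEAT1, IRS4, HNRNPH1 and MKI67. SFPQ, a paraspeckle and splicing protein gene with long retained introns, held 28, 33 and 28 clusters in FLAG-SCAF4 input and 30, 26 and 29 in parental input (log2 difference 0.07 ± 0.12, SE). NEAT1, the noncoding scaffold of paraspeckles, held 48, 16 and 13 against 32, 7 and 8 (0.80 ± 0.16; limma adjusted p = 0.243). DAZAP1, which encodes an RNA-binding protein, held 17, 27 and 28 against 30, 32 and 38 (-0.49 ± 0.13; limma adjusted p = 0.268; 0.18 among higher-scored clusters), and its exonic clusters were 9 against 8 while its intronic clusters were 63 against 92. ENSG00000280441 lies in a repeated ribosomal DNA-like sequence on chromosome 21, where short reads cannot be placed with certainty. MKI67, a proliferation marker, held 20, 23 and 26 clusters against 25, 8 and 18 (0.56 ± 0.30), and IRS4, which encodes an insulin receptor substrate, 41, 8 and 9 against 41, 10 and 15 (-0.33 ± 0.20). HNRNPU, DDX17, HNRNPH1 and GPI had log2 differences between -0.21 and 0.12. In this group the largest differences were thus those of NEAT1, MKI67 and DAZAP1, and none was called.

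The pathway lists held no called gene, and their counts are read against the shares of all tested genes above. Of 12 SR splicing factors, all tested, 7 were higher and 0 lower in all 3 pairs, 4 were higher at an unadjusted p under 0.05, and the median log2 difference was 0.95 against 0.00 over all tested genes. Their clusters numbered 105, 53 and 54 in FLAG-SCAF4 input and 97, 25 and 30 in parental input. SRSF4 held 17, 3 and 7 against 12, 0 and 4 (1.35 ± 0.48, SE), with most of its clusters in introns, 22 against 13. SRSF5 held 6, 3 and 4 against 4, 1 and 2, SRSF6 10, 4 and 2 against 7, 2 and 0, and SRSF9 5, 3 and 2 against 3, 0 and 1.

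Of 25 elongation factors 8 were tested, 3 of them higher and 0 lower in all pairs, with a median of 0.42. SUPT16H, the large subunit of the histone chaperone FACT, held 6, 3 and 1 clusters against 2, 0 and 0, and its partner SSRP1 4, 2 and 2 against 2, 1 and 1. FLAG-SCAF8 input held 2, 7 and 3 clusters in SUPT16H and 1, 4 and 4 in SSRP1. Of 12 RNAPII subunits 2 were tested, and POLR2A, the largest subunit, held 5, 5 and 5 against 4, 1 and 1 (log2 difference 1.35 ± 0.42, SE; limma adjusted p = 0.294), mostly in exons. Of 19 cleavage and polyadenylation factors 8 were tested, 2 higher and 1 lower in all pairs, with a median of 0.42. PABPN1, the nuclear poly(A)-binding protein, held 3, 1 and 1 against 1, 0 and 0, and SYMPK, the scaffold symplekin, 1, 2 and 1 against 2, 2 and 2. Of 8 genes with a CTD-interacting domain 7 were tested, with SCAF4 higher and SCAF8 lower in all pairs and a median of -0.40. Of 10 genes with SCAF-dependent polyA sites, a list taken from the study itself, 2 were tested and neither had a common sign.

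Of 86 cytoplasmic ribosomal protein genes 64 were tested, 16 higher and 7 lower in all pairs, with a median of 0.04. Of 14 translation factors 13 were tested, 3 higher and 1 lower in all pairs, with a median of 0.41, and EEF1A1 held 12, 9 and 9 clusters against 13, 9 and 10. Of 20 hnRNP genes 19 were tested, 3 higher and 1 lower, with a median of 0.05. Of 15 heat shock and unfolded protein response genes 10 were tested, 4 higher and 1 lower, with a median of 0.35, and the chaperone gene HSP90AB1 held 12, 7 and 9 against 8, 6 and 5. Only 1 of 10 p53 targets was tested. Of 68 replication-dependent histone genes 25 were tested, 5 higher and 0 lower in all pairs, with a median of 0.00. Ties enter this count, since H2BC12 held 1, 2 and 2 clusters against 1, 1 and 1, and H3C13 1, 2 and 1 against 1, 0 and 1. Of 15 nuclear and host noncoding RNAs 7 were tested, 2 higher (NEAT1 and TUG1) and 0 lower. The 6 tested structured RNAs of RNA polymerase III, the 10 tested snRNA genes and the 7 tested snoRNA or scaRNA genes had medians of 0.00, and no cluster lay on the mitochondrial genome.

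Regions found in every list of 1 of these 2 lines and in no list of the other were sorted by class. They were picked from the same 6 lists, so their classes are not independent of the shares given above and add no support to them. The clusters of the 6 lists merged into 21577 same-strand regions, of which 1099 were present in all 6 lists. In all 3 lists of FLAG-SCAF4 input and in none of parental input there were 108 regions (0.501%), in 88 genes. In all 3 lists of parental input and in none of FLAG-SCAF4 input there were 104 regions (0.482%), in 87 genes. The 2 sets were thus of nearly equal size. FLAG-SCAF8 input had no part in the choice, and many regions of both sets overlapped its clusters. Of the 108 regions, 76 were exonic (70.4%) and 14 intronic (13.0%). Of the 104 regions, 15 were exonic (14.4%) and 60 intronic (57.7%). Of the regions in all 6 lists, 46.8% were exonic and 24.8% intronic. SCAF4 alone held 13 of the 108 regions, and no other gene held more than 2, whereas DLEU2 held 4 and ENSG00000267053 held 3 of the 104. SCAF4 IP regions overlapped 95 of the 108 (88.0%), 73 of the 104 (70.2%) and 99.4% of the regions in all 6 lists.

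**Figure D5:**
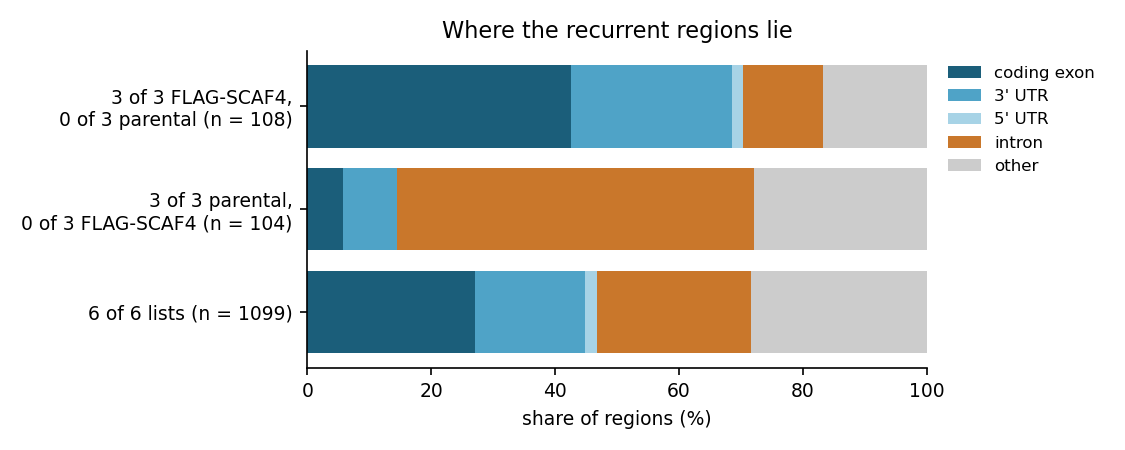
Annotation of merged regions found in every list of 1 line and in no list of the other, and of regions found in all 6 lists, in % of regions. Exonic classes make up 70.4% of the 108 regions of FLAG-SCAF4 input and 14.4% of the 104 regions of parental input, and introns 13.0% and 57.7%.

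The regions with the largest summed cluster length, whose sequences are printed above, are given here beside the values of their whole genes. AEN encodes a nuclease induced in apoptosis, and its 3' UTR region spanned 848 nt (chr15:88630738-88631585). The whole gene held 5, 6 and 4 clusters in FLAG-SCAF4 input and 0, 1 and 2 in parental input (log2 difference 2.15 ± 0.56, SE; limma adjusted p = 0.268). In FLAG-SCAF8 input it held 2, 5 and 4. EIF1AXP1 is a processed pseudogene of EIF1AX, so its region on chromosome 1, which at 624 nt spanned the whole pseudogene, may share reads with the EIF1AX messenger and both counts are uncertain. The regions in TASOR2 (477 nt) and in TUBB4B (472 nt), a beta-tubulin gene with near-identical paralogues, were coding. As a whole gene TASOR2 held 8, 3 and 5 clusters against 13, 1 and 3, and the lines overlapped. On the parental side the region in WDR4, a tRNA methylation cofactor gene, spanned 529 nt of an intron, and the gene held 5, 3 and 4 clusters against 13, 6 and 9 (-1.08 ± 0.24). PRRC2A and IGF2BP3 held 255 and 236 nt intronic regions of this kind, with whole-gene differences of -0.09 ± 0.27 and -0.89 ± 0.59. The regions in AEN, EIF1AXP1, TASOR2, TUBB4B, WDR4 and PRRC2A also overlapped clusters of FLAG-SCAF8 input. The printed SCAF4 regions went both ways, and the IGF2BP3 region did not overlap.

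Set directly against FLAG-SCAF8 input, the exon to intron ratio of FLAG-SCAF4 input had no common direction. FLAG-SCAF8 input had 1.26, 2.29 and 2.18 exonic clusters per intronic cluster, so that its replicate 1 lay below and its replicates 2 and 3 above the FLAG-SCAF4 lists. The log2 difference was 0.56, -0.36 and -0.37 (exact sign-flip permutation p = 1). The 3' UTR share of exonic clusters was lower in FLAG-SCAF4 input than in FLAG-SCAF8 input in all 3 pairs, 40.7%, 37.6% and 34.4% against 50.1%, 39.1% and 42.4%, with a mean difference of -6.34 percentage points (exact sign-flip permutation p = 0.25; adjusted p = 0.443). The overlap with SCAF4 IP regions was higher in FLAG-SCAF4 input by 11.0, 14.8 and 16.6 percentage points, again at the smallest p of 0.25. FLAG-SCAF8 input showed the matching pattern at its own gene, with 18, 20 and 18 clusters in SCAF8 against 7, 2 and 1.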

How the data were processed

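The authors sequenced stranded small RNA libraries of soluble and chromatin fractions, trimmed reads with Trim Galore and cutadapt, aligned them to GRCh38 with Bowtie2 2.2.9, removed duplicates with Picard and called clusters with PARalyzer from reads of both fractions of a replicate together. Reads were basecalled with bcl2fastq 1.8 according to the submitters' processing notes. Other values deposited by the authors per cluster are a start, an end and a strand, and the score column holds a score between 0.5 and 1 deposited by the authors, used here only to restrict lists to higher scores. No column gives reads, so library depth is unknown and no interval for counting error could be given. Only the number of clusters per list limits the precision.

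Each cluster was assigned at its midpoint to GENCODE 44 (isoform with the longest summed exons, 2 kb flanks), and printed sequences were read from the GRCh38 reference. Scalar measures were tested by a two-sided exact sign-flip permutation test on 3 within-replicate differences, adjusted by Benjamini-Hochberg over 39 measures. Genes with at least 6 clusters over the 6 lists were tested with limma 3.58.1 in R 4.3.3 (lmFit, eBayes with trend, replicate block, pseudocount 0.5, adjusted p under 0.05), after a check on simulated data. Python 3.11.15, numpy 2.4.6, pandas 2.3.3 and pysam 0.24.0 were used. Lists were paired by replicate number, as set for this comparison. Over the tested genes, deviations of same-numbered lists correlated at 0.485 (replicate 1), 0.151 (replicate 2) and 0.166 (replicate 3). Different numbers gave -0.329 to 0.228, with 0.159 and 0.228 between replicates 2 and 3. Only the pairing of replicate 1 thus stood apart. Whether replicates came from separate cultures was not stated in the labels, so p-values measure the spread between these lists. The named genes were SCAF4 and SCAF8, the 10 with the most clusters, and the 10 with the smallest p on each side. The latter were taken among genes of 1 sign in all 3 pairs (none was called). Up to 4 genes per gene list of 1 sign in all pairs were added. Last came the regions in every list of 1 of the 2 lines and in no list of the other. The 5 with the most summed cluster length on each side were named, apart from 2 outside transcripts. The members, lists and tests were chosen with earlier results of these data known. Alternatives were a higher score, equal list lengths, another isoform, gene bodies only, covered nucleotides, other minimums and pseudocounts, median centring, all 9 input lists, no block and each replicate left out.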

Additional observations from a re-analysis of the deposited data

Results flagged for a closer look

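Some differences from parental input went the opposite way in every pair of FLAG-SCAF8 input against parental input. Both comparisons share the parental lists, and the difference between them was not tested beyond the direct comparison with FLAG-SCAF8 input given above. The 3' UTR share of exonic clusters differed by -2.75 percentage points in FLAG-SCAF4 input and by 6.46, 0.0803 and 4.25 in FLAG-SCAF8 input. In the shared genes it differed by -2.47 against 5.31, 1.11 and 1.55. The share of intronic clusters in genes over 100 kb differed by -4.11 against 0.442, 3.19 and 2.42. The overlap with SCAF4 IP regions differed by 9.70 against -0.0919, -8.32 and -4.87, and the SCAF4 IP regions came from the extracts of FLAG-SCAF4 input.

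Single genes did the same. SCAF8, the gene of the other construct, differed by -4.15 clusters per 10000 in FLAG-SCAF4 input against 11.7, 12.7 and 10.1, and on the log2 scale by -0.94 against 1.27, 1.37 and 0.92. LINC00665 differed by 2.24 against -1.14, -1.18 and -0.83. ENSG00000267053, on the opposite strand, differed by -1.97 against 0.31, 1.41 and 0.32. TRMT11 differed by -3.12 against 1.06, 0.40 and 0.07. With 3 lists in a group, no single list was tested as standing apart.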

How the results depend on the processing

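Of 1060 alternative values 961 kept their direction and their side of the threshold. Of these alternatives 277 belong to scalar measures, whose exact tests cannot reach the threshold. A further 747 belong to named genes, part of which were chosen for small p and 1 sign in all pairs. The count was therefore partly fixed in advance and says little about stability. Over the alternatives the log2 exon to intron difference stayed between 0.81 and 0.96, in shared genes between 0.48 and 0.64, the intron difference between -14.1 and -10.7 points, and the 3' UTR difference among exonic clusters between -3.39 and -1.85. No exact test of 3 pairs can go below 0.25, so these ranges carry no call. In the shared genes the 3' UTR difference was -0.988 with scores at or above the median. The SCAF4 difference was then 12.2 clusters per 10000.

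Without the replicate block, that is without the pairing, limma called 3 genes higher and 1 lower, and the unblocked exact tests had the same differences. With all 9 inputs it called 9 higher and 15 lower, and with exonic clusters only, chosen after seeing the data, 1 higher (SCAF4, log2 3.30, adjusted p = 0.0232). With each replicate left out it called 0 to 30 higher and 0 to 24 lower. These fits have 1 residual degree of freedom: 30 and 24 came without replicate 1, 9 and 17 without replicate 3. Regions in every list of 1 line only numbered 67 and 50 with scores at or above the median, and with each replicate left out 422 to 542 for FLAG-SCAF4 and 383 to 452 for parental input, where 2 lists against 2 were compared.

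Some values changed sign, among them DAZAP1 (from -0.49), TASOR2 (from 0.41) and GPI (from -0.21), and the cause was not tested. With a replicate left out, the log2 cluster number ranged from -0.0883 to 0.0397, the upstream share from -0.124 to 0.00415, the downstream share from -0.446 to 0.00412, the 5' UTR share of exonic clusters from -0.164 to 0.394, the intronic position from -2.11 to 0.350, the host intron length from -0.683 to 0.449 kb, small noncoding RNA from -0.0309 to 0.323, the exonic IP overlap from -0.211 to 1.79 and T content from -0.659 to 0.0407. Covered nucleotides gave 0.0555 for list size. Scores at or above the median gave 0.00349 for nuclear mitochondrial copies, -0.0229 for the 5' UTR share, 0.178 for host intron length (0.140 at equal list length) and -0.0491 for small noncoding RNA. IP regions in 3 of 3 lists gave -0.907 for exonic overlap. Among genes, scores at or above the median gave HSP90AA1 -0.092, EEF1A1 0.44, ENSG00000280441 0.13, DAZAP1 0.18, HNRNPU -0.25, GPI 0.73, TASOR2 -0.14 and PRRC2A 0.045, and covered nucleotides gave SFPQ -0.057. With a replicate left out, HNRNPU ranged from -0.058 to 0.33, GPI from -0.36 to 0.024, DDX17 from -0.15 to 0.052 and HNRNPH1 from -0.14 to 0.050.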
